A study of Mus musculus with 16 samples.

Results

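The genes of the mitotic spindle and its checkpoint were followed in P19CL6, an embryonal carcinoma line of the mouse. Its cells were cultured with dimethyl sulfoxide (DMSO), and markers of cardiac muscle rose over the days sampled. The set was a list of 34 genes named for their roles in mitosis, of 18193 genes that a probe set assigned to a single gene measures. Where several such probe sets measure a gene, the brightest on average over the 16 arrays was read. All 34 genes were found, and all 34 passed the filter on dim probe sets, which asked for at least 2 arrays with a log2 value over 4, as did 10802 genes in all. Treated cultures had spent 4, 6, 8, 10 or 12 days in 1% DMSO, with fresh medium every 48 h, and growth cultures had no DMSO and were split every 48 h to keep them undifferentiated. There were 3 arrays for growth and for each of days 4, 8 and 10, but 2 for day 6 and 2 for day 12. All came from the same cell line, total RNA was hybridised, and the labels call the samples of a group independent without saying what separated them, so p-values measure the spread between these samples. No culture was kept as long without DMSO, so DMSO, days in culture and the end of passaging cannot be told apart.

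Entry into mitosis depends on the kinase Cdk1, which Cdc25 phosphatases activate, and on the kinases Plk1 and Aurka, which act at centrosomes and on the spindle. Kinetochores assembled on the centromere capture spindle microtubules, and the spindle checkpoint holds Cdc20 inactive until every chromosome is attached. Cdc20 then activates the anaphase promoting complex, a ubiquitin ligase, so that securin is destroyed and separase opens cohesin. Transcripts of most of these genes are made late in the cell cycle and are low in resting cells, and embryonal carcinoma cells divide rapidly.

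Most of the mitotic genes were lower in DMSO cultures than in growth cultures, and more of them were called lower from day 8 on. At day 4, 7 of the 34 genes had fallen, and none had risen. The number that had fallen was 5 at day 6, 17 at day 8, 27 at day 10 and 27 at day 12, again with none that rose. A call needed 2 things: a p under 0.05 from limma's linear model after Benjamini-Hochberg adjustment across the whole array, and a difference of at least 1 log2. Among all 10802 genes, the same rule called 13.6% lower and 13.3% higher at day 4. It called 12.9% lower and 14.0% higher at day 6, and 15.0% lower and 16% higher at day 8. At day 10 it called 19.5% lower and 18.5% higher, and at day 12 it called 19.3% lower and 22.5% higher. With the size threshold, the share of mitotic genes called lower was closer to that of all genes at days 4 and 6 than later. Their median difference, given next, was already below 0 at these days.

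The median difference of the 34 genes from growth was -0.62 log2 at day 4, -0.66 at day 6, -1.01 at day 8, -1.58 at day 10 and -1.59 at day 12. The median over all genes tested lay between -0.02 and 0.01 at each of these days. The difference was below 0 for 31 of the 34 genes at day 4, 30 at day 6 and all 34 at days 8, 10 and 12. With the adjusted p alone and no demand on size, 18, 14, 26, 34 and 33 of them were lower at the 5 days in turn, where 24.8, 21.8, 27.2, 31.7 and 30.1% of all genes were. The 5 differences share the growth arrays and so are not independent of each other. In bulk cultures, fewer cells of a type and less RNA per cell cannot be told apart, and this holds for dividing cells here.

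**Figure D1:**
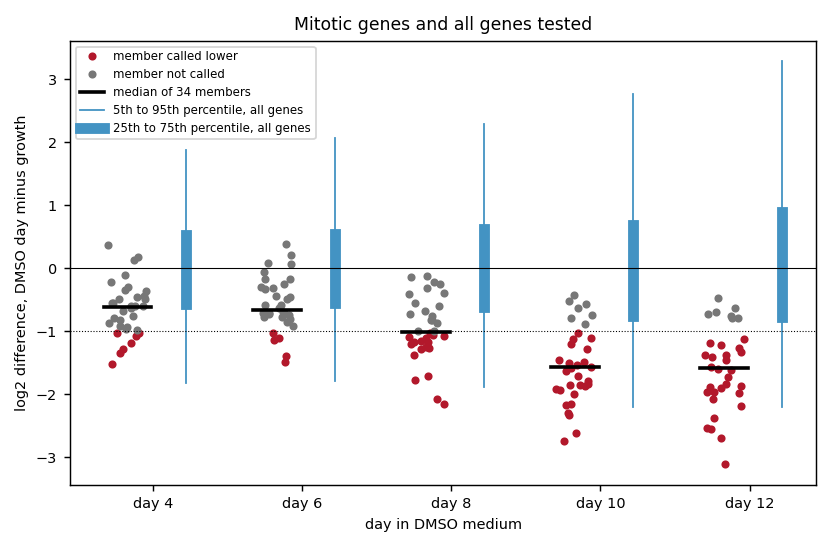
Log2 difference of each DMSO day from growth (vertical axis) by day (horizontal axis). Each point is 1 of the 34 mitotic genes, red where called lower; black bars are their medians, -0.62 at day 4 and -1.59 at day 12. Blue lines span the 5th to 95th percentile of all 10802 genes tested and blue bars the 25th to 75th, and the dotted line marks the size threshold of -1.

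Array medians ran from 3.16 to 3.27 log2, and 39.6 to 42.5% of probe sets lay above the dim cutoff. The difference between 3′ and 5′ control probe sets, which grows as RNA degrades, was 0.68 to 1.33 log2 for Actb on DMSO arrays and 0.87 to 0.96 on growth arrays, and for Gapdh it was -0.41 to -0.19 on DMSO arrays and -0.35 to -0.29 on growth arrays. The mean of the 18S rRNA control probe sets was 8.04 and 8.69 on the day 12 arrays, above every other array, and 5.25 to 6.88 on the other DMSO arrays, against 4.91 to 5.66 on growth arrays. All 7 pluripotency markers tested had fallen at day 12, and all 7 cardiac muscle markers tested had risen. The mean of 8 pluripotency markers was 5.73 to 6.25 log2 on the day 12 arrays, with 6 of 8 above the dim cutoff on both, against 10.29 to 10.61 on the growth arrays, with 7 of 8. The mean of 8 cardiac muscle markers was 11.10 to 11.17 on the day 12 arrays, with 7 of 8 above the cutoff, against 2.90 to 3.20 on the growth arrays, with 0 of 8. Nppa stayed below the cutoff at day 12. Markers of other cell types moved as well. The mean of 5 mesenchyme markers was 7.29 to 7.84 on the day 12 arrays, with 4 of 5 above the cutoff, against 3.12 to 3.23 on the growth arrays, with 0 of 5, and all 4 tested had risen. The mean of 5 endothelium and blood markers was 6.04 to 6.16 on the day 12 arrays and 7.68 to 8.16 on the day 10 arrays, with 3 of 5 above the cutoff on both days, against 2.59 to 2.86 on the growth arrays, with 0 of 5. Of 4 neural markers only Tubb3 was above the cutoff, and it was lower at all 5 days, while Sox1, Neurod1 and Pax6 stayed below. The part of the change in cell type, or of the 18S signal, in the mitotic genes' fall was not tested.

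Day 8 replicate A stood apart from the other arrays of its day in the mitotic genes. Its median difference from growth over the 34 genes was -0.48 log2, against -1.21 for replicate B and -1.23 for replicate C. All 34 genes were higher on replicate A than on replicate B, and all 34 were higher than on replicate C. At least 1 log2 below growth lay 6 genes on replicate A, 22 on replicate B and 20 on replicate C. Such counts were not made over all genes. The median difference of all genes from growth was -0.002, 0.016 and -0.009 on replicates A, B and C. Over all genes, replicate A correlated at 0.967 with B and 0.956 with C, and B and C at 0.987. The cardiac markers averaged 3.45 on replicate A, 6.06 on replicate B and 7.05 on replicate C, so the array with the highest mitotic signal had the lowest cardiac signal of the day. The mean of the endothelium and blood markers was likewise 2.84 on replicate A, against 7.19 on replicate B and 7.66 on replicate C. Without replicate A, 22 mitotic genes had fallen at day 8 in place of 17, where the rule called 16.1% of all genes lower, and their median difference was -1.28 log2. The day 8 calls of Cdc25c, Cenpf and Tpx2 were lost without replicate B and also without replicate C, those of Bub1 and Kif11 without replicate B, and those of Aurkb and Espl1 without replicate C.

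**Figure D2:**
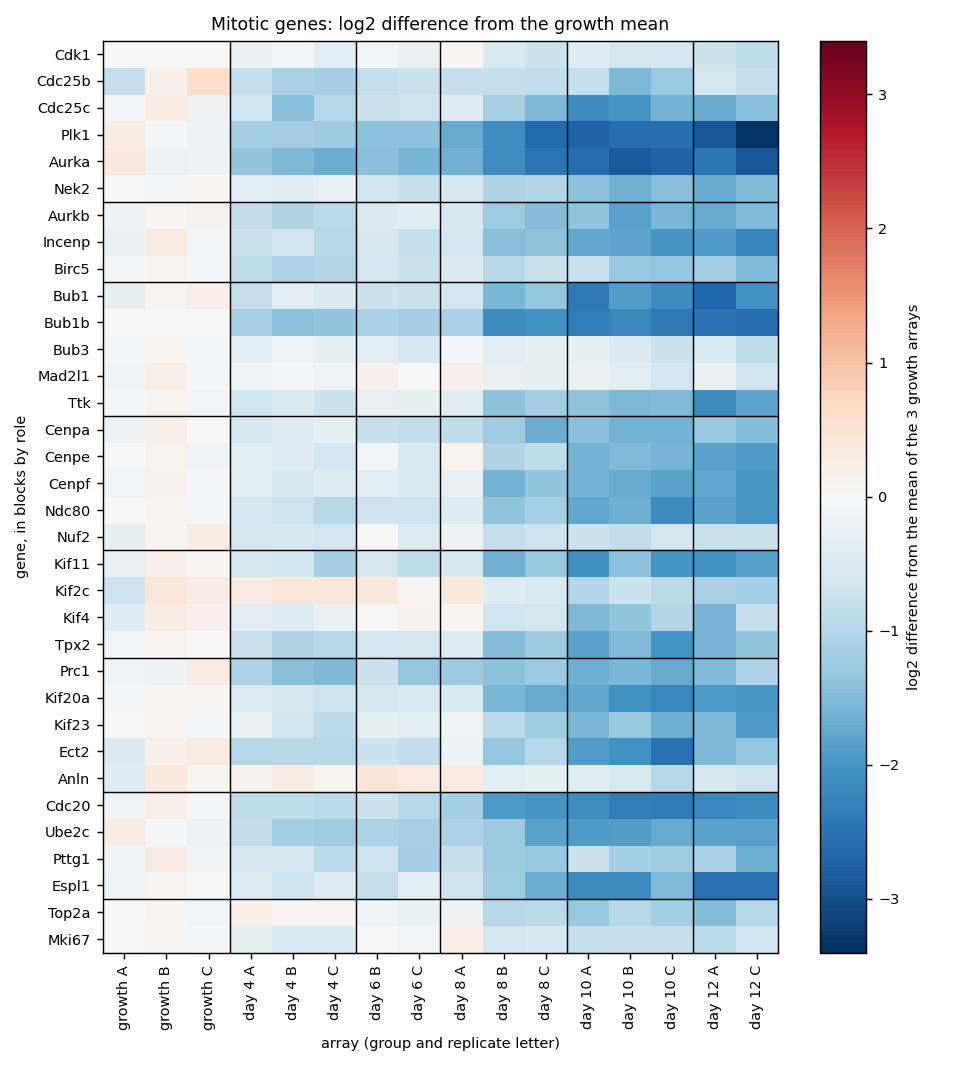
Log2 difference of each of the 34 mitotic genes (rows, in blocks by role) from the mean of the 3 growth arrays, on every array (columns, growth and then the days in DMSO with the replicate letter). Blue is lower and red higher. Days 10 and 12 are blue in every row, Plk1 at day 12 reaches -3.33 on replicate C, and day 8 replicate A is paler than replicates B and C.

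Between neighbouring days few single genes passed the test. None of the 34 was called lower or higher at day 6 against day 4, where 1 gene had an unadjusted p under 0.05 (19.6% of all genes did) and the rule called 2.61% of all genes lower and 3.52% higher. Their median difference was 0.10 log2. None was called at day 8 against day 6, where 10 genes had an unadjusted p under 0.05 (11.5% of all genes), 0.0185% of all genes were called lower and 0% higher, and the median difference was -0.42 log2. That median was -0.70 without day 8 replicate A, -0.29 without B and -0.27 without C. Without day 8 replicate A, Cenpf, Kif20a and Cdc20 were called lower at day 8 than at day 6, 3 genes where 1.93% of all genes were called lower. At day 10 against day 8, Ect2 alone was called, 1 gene of 34, with 3.19% of all genes called lower and 4.62% higher, although 26 genes had an unadjusted p under 0.05, as did 30.7% of all genes. The median difference was -0.58 log2, and -0.32 without day 8 replicate A. None was called at day 12 against day 10, where 3 genes had an unadjusted p under 0.05 (17% of all genes), 0.185% of all genes were lower and 2.88% higher, and the median difference was -0.07 log2. At day 12 against day 4, a comparison without growth arrays, 17 of the 34 had fallen and none had risen, with 13.2% of all genes lower and 19% higher and a median difference of -1.03 log2.

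Taking the first day on which a gene was called lower as its onset, 7 genes fell by day 4: Cdc25b, Cdc25c, Plk1, Aurka, Bub1b, Prc1 and Ube2c. None had its onset at day 6. At day 8 a further 11 had fallen, namely Aurkb, Incenp, Bub1, Cenpa, Cenpf, Kif11, Tpx2, Kif20a, Cdc20, Pttg1 and Espl1. At day 10 came 9 more, Nek2, Birc5, Ttk, Cenpe, Ndc80, Kif4, Kif23, Ect2 and Top2a, and Kif2c followed at day 12. Without day 8 replicate A, Nek2, Ttk, Ndc80, Kif23 and Ect2 were already called lower at day 8, at -1.01 to -1.28, so that 16 genes had their onset at day 8 and 4 at day 10. The remaining 6, Cdk1, Bub3, Mad2l1, Nuf2, Anln and Mki67, were called at no day. Onsets were counted for the mitotic genes only. Of all genes, 13.6, 12.9, 15.0, 19.5 and 19.3% were called lower at the 5 days in turn. These shares also stand beside the counts by role below. Plk1, Aurka, Bub1b, Prc1 and Ube2c were called lower at all 5 days, although at day 6 Prc1 lost its call without growth replicate C, at -0.89, or day 6 replicate C, at -0.73, and Ube2c without growth replicate A, at -0.99. An onset depends on the threshold of size, since 11 of the 27 genes not called at day 4 had an adjusted p under 0.05 with a smaller difference. It depends on the probe set too: of the 18 genes with a further probe set above the dim filter, 8 had one that was called lower on an earlier day. Those of Aurkb, Incenp, Bub3, Kif11, Cdc20 and Pttg1 were called at day 4, that of Kif23 at day 8 and those of Kif2c at day 10.

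Among the genes of mitotic entry, Plk1 and Aurka fell deepest. Plk1, the polo-like kinase of centrosome maturation and spindle assembly, was at 8.14 and 7.71 log2 on the day 12 arrays, against 11.28, 10.96 and 10.86 on the growth arrays. On the day 4 arrays it was at 9.87, 9.86 and 9.79, already below every growth array. It fell by 1.19 log2 at day 4 (SE 0.21, adjusted p = 0.000342) and fell by 3.11 at day 12 (SE 0.23, adjusted p = 1.33e-07), which left 43.7% and 11.6% of the growth level. Within the DMSO days it fell by 1.92 log2 at day 12 against day 4 (adjusted p = 1.92e-05). Aurka, the kinase of centrosome separation and spindle poles, was at 9.32, 9.15 and 9.001 on the day 4 arrays and 8.09, 7.82 and 7.92 on the day 10 arrays, against 11.05, 10.46 and 10.51 on the growth arrays. The groups did not overlap, and Aurka fell by 1.52 log2 at day 4 (SE 0.22, adjusted p = 8.38e-05), the largest fall of the 34 genes at that day. It fell by 2.74 at day 10 (SE 0.22, adjusted p = 2.66e-07). At day 12 it was at 15.4% of the growth level.

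Cdk1, the kinase that drives mitotic entry, was called at no day. It was at 10.47 and 10.35 on the day 12 arrays, against 11.22, 11.21 and 11.18 on the growth arrays. The difference was -0.79 log2 at day 12 (95% confidence interval -1.24 to -0.35, adjusted p = 0.0042), or 57.7% of the growth level, which passed the adjusted p but not the size. Cdc25c, a phosphatase that activates Cdk1, was at 7.07, 6.32 and 6.76 on the day 4 arrays and 5.61, 5.75 and 6.14 on the day 10 arrays, against 7.69, 7.98 and 7.55 on the growth arrays. It fell by 1.02 log2 at day 4 (adjusted p = 0.00546) and fell by 1.91 at day 10 (adjusted p = 3.02e-05). The day 4 call was lost without growth replicate B, at -0.90, or day 4 replicate B, at -0.83. Cdc25b, the related phosphatase that acts earlier at centrosomes, was at 4.65, 4.37 and 4.31 at day 4, against 4.67, 5.65 and 6.09 in growth. Growth replicate A lay just above the day 4 arrays and the other growth arrays well above them. It fell by 1.02 log2 at day 4 (adjusted p = 0.00849), a call lost when any of 4 arrays was left out (replicates B and C of growth and of day 4), at -0.72 to -0.99, and in a fit of only those groups. It fell by 1.20 at day 10, a call lost without growth replicate C, at -0.89, and it was not called at days 6, 8 and 12. Nek2, a centrosome kinase, fell by 1.48 log2 at day 10 (adjusted p = 1.42e-06) and fell by 1.61 at day 12 (adjusted p = 1.95e-06). Its second probe set gave -0.62 at day 12 and was not called.

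**Figure D3:**
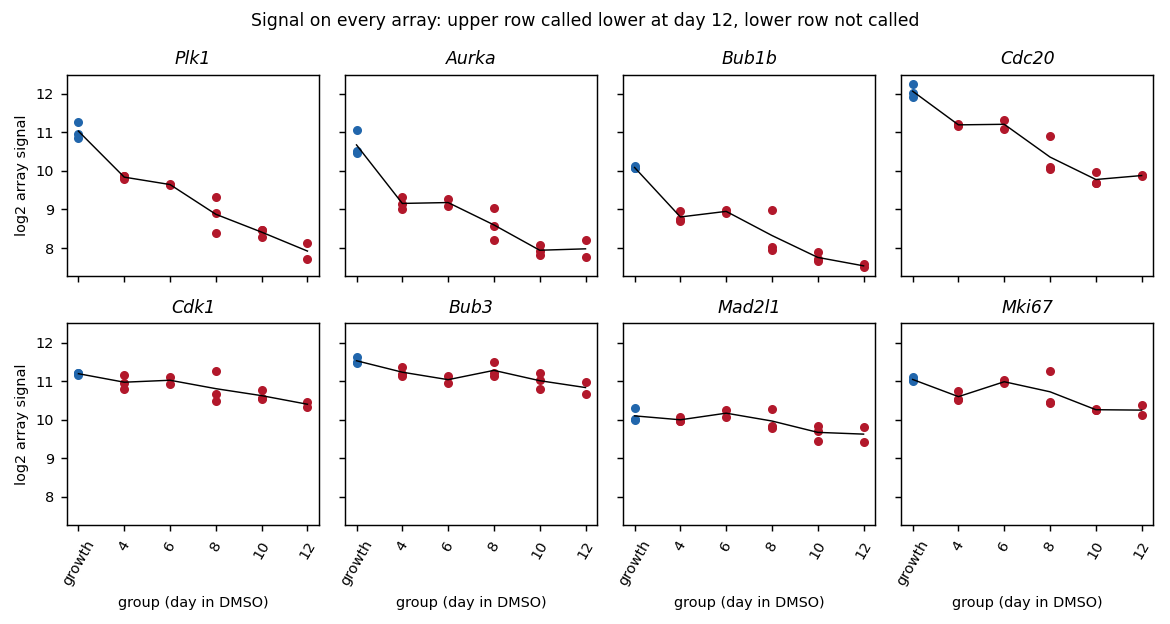
Log2 array signal (vertical axis) of 8 genes in growth and at each day in DMSO (horizontal axis). Points are single arrays, blue for growth and red for DMSO, and lines join group means; levels are not compared between genes, whose probe sets differ. Plk1, Aurka, Bub1b and Cdc20 at day 12 lie below all growth arrays by more than 2 log2, while Cdk1, Bub3, Mad2l1 and Mki67 lie within 1 log2 of growth on average.

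In the chromosomal passenger complex, Aurkb is the kinase, and Incenp and Birc5 (survivin) hold and place it. These 3 of its genes were all called lower by day 10. By their brightest probe sets none of the 3 genes was called at days 4 and 6, 2 were at day 8, and all 3 were at days 10 and 12. The dimmer sets were called earlier: at day 4 both further sets of Incenp differed from growth by -1.07 and -2.20 and the second set of Aurkb by -1.07, all 3 called, and the dimmest of Incenp was called at day 6 as well, at -1.68. Incenp was at 9.24 and 8.93 log2 on the day 12 arrays, against 10.94, 11.46 and 11.08 on the growth arrays, and fell by 2.08 (SE 0.24, adjusted p = 5.93e-06). Aurkb was at 7.65 and 7.85 at day 12, against 9.18, 9.40 and 9.49 in growth, and fell by 1.60 (adjusted p = 4.65e-05). Birc5 was at 10.38 and 10.07 at day 12, against 11.53, 11.67 and 11.48 in growth, and fell by 1.33 (adjusted p = 5.62e-05). Birc5 had already been at 50.7% of growth at day 4, just short of the size threshold.

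The 5 checkpoint genes split into 3 that fell and 2 that were called at no day. Bub1b (BubR1), which binds Cdc20 in the inhibitory complex, was at 8.96, 8.71 and 8.75 log2 at day 4 and 7.57 and 7.50 at day 12, against 10.07, 10.09 and 10.12 in growth. It fell by 1.28 at day 4 (SE 0.22, adjusted p = 0.00028) and fell by 2.55 at day 12 (SE 0.24, adjusted p = 1.18e-06). A second probe set of Bub1b fell by 2.46 at day 12, and both sets were called lower at every day. Bub1, its kinetochore kinase relative, was at 8.39 and 9.02 at day 12, against 10.75, 11.21 and 11.30 in growth, and fell by 2.38 (SE 0.28, adjusted p = 7.45e-06), with its onset at day 8. Ttk (Mps1), the kinase that starts the checkpoint signal, was at 7.15 and 7.48 at day 12, against 9.26, 9.40 and 9.19 in growth. It fell by 1.97 at day 12 (adjusted p = 7.76e-06). Its onset was at day 10, at -1.46, a call lost when the probe sets of Ttk were averaged, at -0.86, and without day 8 replicate A it was called at day 8, at -1.28. The second set of Ttk, at 4.45 in growth, was called at no day.

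Mad2l1 and Bub3, the other two, were called at no day. Mad2l1, which binds Cdc20 in the same complex, was at 9.82 and 9.44 log2 at day 12, against 9.99, 10.30 and 10.03 in growth. Its difference was -0.47 (95% confidence interval -0.89 to -0.06, adjusted p = 0.0475), the smallest of the 34 genes, and at day 6 it was 0.07 (interval -0.35 to 0.49). Bub3, the partner that carries Bub1 and Bub1b to kinetochores, was at 10.995 and 10.69 at day 12, against 11.49, 11.64 and 11.48 in growth, a difference of -0.70 (interval -1.08 to -0.31, adjusted p = 0.00381). The probe sets of Bub3 disagreed: the second, at 8.11 in growth, was called lower at days 4, 6, 8 and 12, and fell by 1.54 log2 at day 12. That Bub3 was called at no day therefore rests on its brightest probe set.

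At the centromere and kinetochore, 4 of 5 genes had fallen by days 10 and 12 and none at days 4 and 6. Cenpa, the histone H3 variant that marks centromeres, was at 9.82 and 9.64 log2 at day 12, against 10.92, 11.32 and 11.12 in growth, and fell by 1.38 (adjusted p = 7.28e-05). A dimmer second probe set of Cenpa was called higher at day 4, by 1.21, and lower at no day. Ndc80, which contacts microtubules in the outer kinetochore, was at 6.49 and 6.32 at day 12, against 8.30, 8.39 and 8.22 in growth, and fell by 1.90 (SE 0.24, adjusted p = 1.25e-05). Nuf2, the subunit that pairs with Ndc80, was at 6.58 and 6.57 at day 12, against 7.0, 7.44 and 7.58 in growth. The difference for Nuf2 was -0.76 (interval -1.23 to -0.29, adjusted p = 0.0079), short of the size threshold. The kinetochore motor Cenpe fell by 1.87 (adjusted p = 4.54e-05) and the large kinetochore protein Cenpf fell by 1.88 (adjusted p = 7.35e-05) at day 12. The second probe set of Cenpe, at 5.82 in growth, was called lower at day 10, at -1.365, but not at day 12, at -0.66. Cenpf had its onset at day 8, and that call was lost without replicate B, at -0.81, or replicate C, at -0.95.

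Of the motors and assembly factors of the spindle, all 4 had fallen at day 12 and none at day 4, by their brightest probe sets. Kif11 (Eg5), the motor that pushes spindle poles apart, was at 7.39 and 7.57 log2 at day 12, against 9.21, 9.61 and 9.53 in growth, and fell by 1.97 (SE 0.30, adjusted p = 6.32e-05). Tpx2, which activates Aurka on spindle microtubules, was at 8.42 and 8.67 at day 12, against 9.90, 10.11 and 10.00 in growth, and fell by 1.46 (adjusted p = 0.00022). Both had their onset at day 8 by these sets, while a further set of Kif11, at 9.16 in growth, was called lower at day 4, at -1.26. Kif4, a chromosome-bound kinesin, was at 5.98, 6.19 and 6.53 at day 10, against 7.09, 7.78 and 7.70 in growth, and fell by 1.29 (adjusted p = 0.000688). It fell by 1.18 at day 12, a call lost without day 12 replicate A, at -0.78. Kif2c (MCAK), a kinesin that takes microtubules apart at centromeres, was the last to fall. It was at 9.28, 9.41 and 9.41 on the day 4 arrays, which lie among the growth values of 8.30, 9.41 and 9.27. On the day 12 arrays Kif2c was at 7.90 and 7.84, and it fell by 1.12 against growth (SE 0.31, adjusted p = 0.00626). Growth replicate A was about 1 log2 below its partners for Kif2c, and the call was lost without growth replicate B, at -0.92, or C, at -0.98. At day 12 the other two probe sets of Kif2c differed from growth by -1.94 and -2.0, and both were already called lower at day 10.

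Central spindle and cytokinesis genes had onsets from day 4 to day 10, and 1 of the 5 had none. Prc1, which bundles microtubules in the central spindle, was at 8.27, 7.86 and 7.80 log2 at day 4 and 7.83 and 8.28 at day 12, against 9.21, 9.14 and 9.61 in growth. It fell by 1.34 at day 4 (SE 0.20, adjusted p = 9.39e-05) and fell by 1.26 at day 12 (adjusted p = 0.000234). Its deepest difference was -1.64 at day 10, and 81.8% of that was present at day 4. At day 6 the second probe set of Prc1, at -0.61, was not called. The day 6 call was also lost when its sets were averaged, at -0.82. Kif20a, a central spindle kinesin, was at 8.30 and 8.28 at day 12, against 10.20, 10.30 and 10.29 in growth, and fell by 1.97 (adjusted p = 2.99e-05). Kif23 (MKLP1), a subunit of centralspindlin, was at 7.51 and 7.13 at day 12, against 9.03, 9.10 and 8.998 in growth, and fell by 1.72 (adjusted p = 9.98e-05). At day 12, 33 of the 34 mitotic genes lay below every growth array on replicate A and all 34 on replicate C. Kif20a and Kif23 were among them, and so were the genes called at no day. The share of all genes was not counted.

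Ect2, the exchange factor that switches on RhoA at the division plane, was lowest at day 10. It was at 6.87, 6.72 and 6.23 log2 at day 10, against 8.60, 7.45 and 7.80 at day 8 replicates A, B and C, and fell by 1.34 between these days (SE 0.28, adjusted p = 0.00612). Against growth, at 8.28, 8.96 and 9.08, it fell by 2.17 at day 10 (adjusted p = 1.51e-05) and fell by 1.42 at day 12 (adjusted p = 0.00127). Anln, the actin-binding scaffold of the contractile ring, was at 9.52, 9.63 and 9.47 at day 4 and 8.80 and 8.68 at day 12, against 8.92, 9.72 and 9.47 in growth. Its differences ran from 0.38 at day 6 (interval -0.17 to 0.93) to -0.64 at day 10 (interval -1.13 to -0.15), and none was called.

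The 4 genes of anaphase and mitotic exit were all called lower at days 8, 10 and 12. Cdc20, the activator of the anaphase promoting complex, was at 11.21, 11.20 and 11.18 log2 at day 4 and 9.86 and 9.90 at day 12, against 11.92, 12.26 and 12.03 in growth. It was 0.87 below growth at day 4 (adjusted p = 0.00282), under the size threshold, and fell by 1.71 at day 8 (adjusted p = 1.17e-05) and fell by 2.29 at day 10 (SE 0.20, adjusted p = 5.66e-07). Ube2c, the ubiquitin-conjugating enzyme of that complex, was at 11.06, 10.71 and 10.68 at day 4 and 10.08 and 10.03 at day 12, against 12.14, 11.83 and 11.71 in growth. It fell by 1.08 at day 4 (adjusted p = 0.0004) and fell by 1.84 at day 12 (adjusted p = 6.8e-06), and the day 4 call was lost without growth replicate A, at -0.95. Espl1 (separase), the protease that cuts cohesin, was at 6.85 on both day 12 arrays, against 9.25, 9.48 and 9.40 in growth, and fell by 2.53 (SE 0.27, adjusted p = 2.85e-06). Pttg1 (securin), which holds separase inactive, was at 11.80 and 11.25 at day 12, against 12.75, 13.17 and 12.78 in growth, and fell by 1.38 (adjusted p = 0.000265). At day 12 Espl1 was thus at 17.3% and Pttg1, by its brightest probe set, at 38.6% of their growth levels. The calls of that Pttg1 set at days 8 and 10 were lost without growth replicate B, at -0.97 and -0.89, and at day 10 also without day 10 replicate B or C. The further sets of Pttg1, at 11.76 and 5.91 log2 in growth, differed from growth by -1.69 and -2.485 at day 12. Both were called lower at days 8, 10 and 12.

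Top2a and Mki67 are commonly used to mark dividing cells, and neither was called before day 10. Top2a, the topoisomerase that untangles sister chromatids, was at 11.26, 11.16 and 11.15 log2 at day 4 and 9.59 and 10.11 at day 12, against 11.06, 11.16 and 10.97 in growth. Its difference was 0.13 at day 4 (interval -0.31 to 0.56), and it fell by 1.22 at day 12 (SE 0.23, adjusted p = 0.000361), a call lost without day 12 replicate A, at -0.96. Mki67, which coats mitotic chromosomes, was at 10.13 and 10.38 at day 12, against 11.04, 11.11 and 11.01 in growth. The difference for Mki67 was -0.80 (interval -1.26 to -0.33, adjusted p = 0.00576), and it was called at no day.

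**Figure D4:**
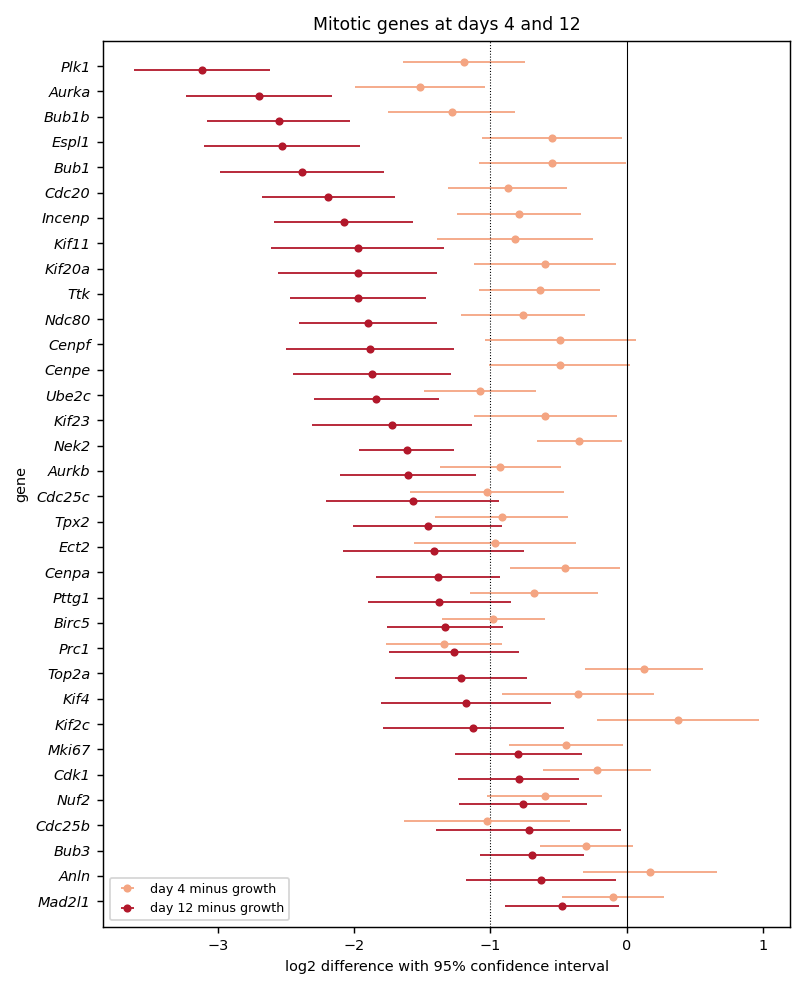
Log2 difference from growth (horizontal axis) of each of the 34 genes (rows, deepest at day 12 on top), at day 4 in light red and at day 12 in dark red, with 95% confidence intervals from the linear model. The dotted line is the size threshold of -1. Plk1 at -3.11 and Mad2l1 at -0.47 bound the day 12 values.

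The genes that stayed bright were few. Cdk1, Birc5, Bub3, Pttg1 and Mki67, 5 of the 34, lay above a log2 value of 10 on all 13 DMSO arrays, out of 16 that did so on all 3 growth arrays. Of all genes tested, 774 stayed that bright on the DMSO arrays out of 1324 that were so in growth, and 8.48% of genes were above 10 on all 13 DMSO arrays. Staying bright was not the same as not falling, since Birc5 and Pttg1 fell by more than 1 log2 from a high growth signal. Mad2l1, Nuf2 and Anln, called at no day, were not among the bright. The lowest DMSO arrays of the 5 bright genes read 10.35 for Cdk1, 10.07 for Birc5, 10.69 for Bub3, 11.25 for Pttg1 and 10.13 for Mki67, so Birc5 and Mki67 were just inside the threshold.

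Other probe sets of the same genes were read as a check. Of the 75 single-gene probe sets of these genes, 58 passed the dim filter, of which 24 were not the ones used above and belonged to 18 genes. Of these 24, 10 were called lower at day 4, 9 at day 6, 15 at day 8, 19 at day 10 and 18 at day 12, and the Cenpa set at day 4 was the only 1 called higher. By their brightest sets, 13.6, 12.9, 15.0, 19.5 and 19.3% of all genes were lower at these days. The further sets were fitted among 18970 probe sets, whose share called lower is not given here. At day 12 the dimmer Incenp sets differed from growth by -2.22 and -3.25 log2, against -2.08 for the brightest, and the second Cdc20 set by -2.84. For 13 genes a single-gene probe set has no partner, among them Plk1, Aurka, Cdk1 and Espl1.

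Promoter sequence was compared because many late cell cycle genes carry the cell cycle genes homology region (CHR), bound by the MuvB complexes that repress them in resting cells and activate them before mitosis, next to CCAAT boxes bound by NF-Y. Both are background from studies of mammalian promoters, and neither binding was measured here. RefSeq promoters (build GRCm38.p6, 250 bases before to 50 after the start) were found for 29 of the 34 genes, in 32 windows. The letters TTTGAA of the CHR, on either strand, occurred in 24 of the 32 windows (75%) and in 11.6% of 11343 windows of the genes tested. Within 50 bases of the start they occurred in 65.6% of the mitotic windows, against 3.09%. The CCAAT letters, on either strand, occurred in 78.1%, against 37.7%, and both motifs together in 65.6%, against 4.66%. By their letters the motifs can overlap by at most 1 base. A match is a description of these letters and not a site.

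Promoters with both motifs close before the start are shown first, as the last 100 bases before the start, with TTTGAA and CCAAT on either strand in capitals. They were chosen after the matches were seen, and all 4 genes fell.
Cdc20, chr4:118437344-118437443, minus strand: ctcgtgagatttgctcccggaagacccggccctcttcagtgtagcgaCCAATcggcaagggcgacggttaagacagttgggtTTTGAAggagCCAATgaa
Espl1, chr15:102296193-102296292, plus strand: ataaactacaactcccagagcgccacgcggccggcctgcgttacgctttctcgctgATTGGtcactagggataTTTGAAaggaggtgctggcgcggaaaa
Ube2c, chr2:164769829-164769928, plus strand: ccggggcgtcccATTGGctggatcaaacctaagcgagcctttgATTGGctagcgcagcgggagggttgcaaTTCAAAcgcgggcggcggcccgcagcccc
Kif11, chr19:37376282-37376381, plus strand: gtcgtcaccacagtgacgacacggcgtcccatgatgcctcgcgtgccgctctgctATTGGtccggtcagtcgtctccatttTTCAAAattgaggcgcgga
In each of the 4 a CCAAT box lies upstream of the CHR letters. Counted from the start, the CHR letters begin at -18 in Cdc20, -27 in Espl1, -29 in Ube2c and -19 in Kif11, and the nearest CCAAT box upstream begins at -53, -44, -57 and -45 in the same order.

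The promoters of the deepest and the smallest changes among the genes with a RefSeq window, 250 bases before the start, are shown for contrast, again with the CCAAT letters in capitals.
Plk1, chr7:122159185-122159434, plus strand: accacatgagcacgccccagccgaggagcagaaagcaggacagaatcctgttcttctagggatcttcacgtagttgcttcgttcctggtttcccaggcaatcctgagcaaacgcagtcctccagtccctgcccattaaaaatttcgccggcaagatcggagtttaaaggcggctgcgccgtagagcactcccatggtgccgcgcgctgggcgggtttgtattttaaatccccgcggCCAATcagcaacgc
Aurka, chr2:172370571-172370820, minus strand: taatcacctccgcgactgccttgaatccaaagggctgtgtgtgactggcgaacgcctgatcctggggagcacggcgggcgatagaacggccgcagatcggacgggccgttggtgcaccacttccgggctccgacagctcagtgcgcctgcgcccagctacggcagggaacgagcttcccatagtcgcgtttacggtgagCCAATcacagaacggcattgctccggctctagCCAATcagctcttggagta
Anln, chr9:22389207-22389456, minus strand: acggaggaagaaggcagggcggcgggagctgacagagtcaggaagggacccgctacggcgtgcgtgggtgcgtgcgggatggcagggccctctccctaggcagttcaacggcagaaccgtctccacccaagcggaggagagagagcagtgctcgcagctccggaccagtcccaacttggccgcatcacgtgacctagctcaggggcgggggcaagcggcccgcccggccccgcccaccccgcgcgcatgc
Mad2l1, chr6:66534971-66535220, plus strand: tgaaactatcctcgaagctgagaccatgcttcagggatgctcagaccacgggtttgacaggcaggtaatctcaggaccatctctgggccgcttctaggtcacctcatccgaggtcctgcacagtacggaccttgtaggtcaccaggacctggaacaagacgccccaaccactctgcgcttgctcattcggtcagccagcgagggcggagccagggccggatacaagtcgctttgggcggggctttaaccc
In Plk1 and Aurka the CHR letters begin 31 and 33 bases after the start, and 1 and 2 CCAAT boxes lie before it. Anln also has CHR letters after the start, at 22 and 29, with no CCAAT box, and Mad2l1 has neither in its window. The promoters of Bub3, Cdk1 and Mki67, called at no day, hold both motifs, so the letters occurred in genes of both kinds.

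Other genes of mitosis and replication, grouped by role, were counted at day 12 with the same rule. Of 19 genes of condensin and cohesin, 8 had fallen and 0 had risen, with a median of -0.78 log2; Sgo1, which protects centromeric cohesin, fell by 3.32, and Cdca5 (sororin) fell by 3.02. The condensin subunit Ncapg fell by 2.38 at day 10, and Ncapd2 fell by 1.79 at day 12. Of 30 other kinetochore and centromere genes, 19 had fallen and 1 had risen (median -1.30). The largest called differences were -3.19 for Pmf1, -3.02 for Cenpn and -2.63 for Kntc1 at day 12. Cenpm was called lower at day 8 with a mean of 3.48, below the dim cutoff, against 6.75 in growth, so the size of its fall was not measured. Of 18 other spindle motors and microtubule proteins, 14 had fallen and 0 had risen (median -1.67), with -2.33 for Ckap2l at day 12 and -2.86 for Kif18b, -2.28 for Nusap1 and -2.09 for Kif18a at day 10. Of 20 other genes of mitotic entry and cytokinesis, 13 had fallen and 0 had risen (median -1.34). Haspin, a histone H3 kinase, was called lower at day 10 with a mean of 3.17, also below the dim cutoff, against 7.34 in growth. The kinase Melk fell by 2.35 at day 10. Cdca8 (borealin) fell by 2.34 and Gtse1 fell by 2.28 at day 12. These counts stand beside the 19.3% of all genes that were lower and the 22.5% that were higher.

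Other groups moved less or both ways, and the same shares of all genes at day 12 stand beside their counts. Of 12 centrosome and centriole genes 4 had fallen and 0 had risen at day 12 (median -0.66), with -1.59 for Cdk5rap2 at day 10 and -1.45 for Cep152 at day 12, where Cep135 was at 3.47, below the dim cutoff, against 4.97 in growth. Stil, which builds new centrioles, rose by 1.05, 1.13 and 1.22 log2 at days 4, 6 and 8. Of 18 genes of the anaphase promoting complex and its regulators, 6 had fallen and 1 had risen (median 0.14). The complex's inhibitor Fbxo5 (Emi1) fell by 2.20 at day 10, where Mad2l2 was at -1.94 and Cdc14b at -1.90 against growth, both called. Its ubiquitin-conjugating enzyme Ube2s fell by 1.84 at day 12, while the core subunits Anapc2 (days 6, 8 and 10) and Anapc4 (days 6, 8, 10 and 12) rose, Anapc4 by 1.23 at day 12.

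In the kinetochore list, Ska2, Zwint and Cenpi were the genes called higher at any day, while 9, 7, 10, 17 and 19 of its 30 genes were called lower at the 5 days in turn. Of all genes, 13.6, 12.9, 15.0, 19.5 and 19.3% were lower at those days. Ska2, a subunit of the complex that follows microtubule ends, rose at all 5 days, by 2.01 log2 at day 12 (SE 0.24, adjusted p = 8.9e-06), with group means of 9.24 at day 12 and 7.24 in growth. Zwint rose at days 6, 8 and 10, by 1.58 at day 10, and Cenpi at days 6 and 8, by 1.34 at day 8.

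The genes of DNA replication were lower at the later days too. Of 42 tested, 2 had fallen at day 4, 4 at day 6, 17 at day 8, 29 at day 10 and 32 at day 12, with 0 higher at any of these days. Of all genes, 13.6, 12.9, 15.0, 19.5 and 19.3% were lower at these days. The called share of replication genes was thus below that of all genes at days 4 and 6 and above it from day 8 on. Even so, their median difference was -0.45 log2 at day 4 and -0.51 at day 6. On both days 31 of the 42 lay below growth. The median over all genes was -0.003 and 0.004 at these 2 days. The origin protein Orc1 was called lower at day 10 with a mean of 3.60, below the dim cutoff, against 6.91 in growth. At day 12 the called differences of Mcm10, Mcm2 and Cdc45 were -3.18, -2.33 and -2.28. Of 16 cyclins, 4 had fallen and 5 had risen at day 12, beside 19.3% of all genes lower and 22.5% higher. The mitotic cyclin Ccnb2 fell by 1.13 at day 4, and at day 12 the called differences were -1.30 for Ccnb2, -2.28 for Ccnf, -1.81 for Ccne1 and -1.86 for Ccnd1. In the other direction Ccng2 rose by 3.90 and Ccne2 by 2.54 at day 12, and Ccnd2 by 2.24 at day 8. No test compared these groups with each other.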

How the data were processed

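The deposited table holds log2 signals for 45101 probe sets of an Affymetrix mouse expression array on 16 arrays. The authors made them with GCRMA, per the submitters' processing notes, which corrects background from probe sequence and combines quantile-normalized probes; no version is given in the sources used here. The scale was read from the range of the values, 0.863 to 15.9, and the number of arrays limits precision. Probe sets naming 1 gene (34945) were used and 932 naming several were not. For each gene the set with the highest mean was kept among those above 4 on at least 2 arrays.

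The 6 group means were estimated together in limma 3.58.1 under R 4.3.3 (lmFit, eBayes; 10 residual and 3.53 prior degrees of freedom). The same procedure was checked separately on simulated data. The members and lists were chosen with earlier results of these data known. All members were named; of the other lists, up to 4 with the largest called difference and every one called against most of its list. Deviations from group means correlated above 0.1 in 13 of 35 pairs of same-lettered arrays (median 0.06) and in 7 of 71 other pairs (median -0.03). Since pairing was accepted only with every pair above 0.1, no block was used. Alternatives changed the dim filter, scaling, low values, variance model, array weights, replicate block, groups fitted, choice of probe set, size threshold and arrays.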

Additional observations from a re-analysis of the deposited data

How the results depend on the processing

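No setting reversed a difference, and of 170 differences from growth (34 genes at 5 days), 83 were called. The replicate block kept 83 of the 83 and gave the same counts of genes that had fallen, 7, 5, 17, 27 and 27 at the 5 days; the letters were not taken to pair the samples. The dim filter, both scalings, the floor, the variance trend and the array weights kept all the calls they tested. With no size threshold, 18, 14 and 26 genes were lower at days 4, 6 and 8 and 10 at day 10 against day 8, where 24.8, 21.8, 27.2 and 8.21% of all genes were. Without probe sets ending in _x_at and _s_at, 9 were lower at day 6, and 3 were bright. The bright count was 10 above a log2 value of 9, 1 above 11, and 3 when the probe sets of each gene were averaged. Between days 8 and 6, array weights gave 2 genes. Between days 10 and 8, a common median gave 2 and a fit of only those groups gave 0. Leaving out 1 array at a time gave 0 to 3 genes lower at day 8 against day 6 and 1 to 5 at day 10 against day 8, with 3 in the first without day 8 replicate A, and in the second 5 without day 8 replicate B, 4 without C, 2 without day 10 replicate B and 3 without C. The counts against growth then ran from 5 to 9, 4 to 6, 12 to 22, 26 to 28 and 25 to 28. Day 8 thus varied most, and groups of 2 arrays limit days 6 and 12.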
